A study of Zeugodacus cucurbitae with 6 samples.

Results

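The Toll and Imd pathways are the pair of signalling routes by which insects sense microbes and switch on their defence genes, as worked out in Drosophila melanogaster. In the Toll pathway, proteases cut the secreted ligand Spaetzle, which then binds the receptor Toll. In the Imd pathway, the caspase Dredd cuts both the adaptor Imd and Relish, a transcription factor of the NF-kB family, and the freed part of Relish enters the nucleus and switches on antimicrobial peptide genes. Toll also patterns the early Drosophila embryo, so the pathway is not only an immune one. Here 5 genes of these pathways were followed in larvae of the melon fly Zeugodacus cucurbitae: the ligand gene Spz_1, the receptor genes Tl_13 and Tl_6, the caspase gene Dredd_2 and the Relish gene Rel_1. They were taken by their names from the 12834 genes of the deposited table, and the rule uses no measured value.

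The irradiated larvae came from eggs about 25 h old that received 50 Gy of gamma rays from cobalt-60 at 1.0 Gy per minute, with oxygen present. The non-irradiated larvae came from eggs of the same age that received 0 Gy. Each group had 3 replicates, each a pool of 20 whole 3rd instar larvae reared on the same artificial diet, and RNA was read as poly-A selected libraries. The 3 irradiated libraries held 17191722, 18311658 and 17701282 counts on genes, and the 3 non-irradiated libraries held 13192748, 14115043 and 16344295. No strain or sex was given in the labels.

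Irradiated replicates 1 and 2 were far more alike than any other pair of libraries. Their Spearman correlation across genes was 0.996, against 0.930 to 0.978 in the other 14 pairs. Gene by gene, the squared difference of their counts in units of sampling error averaged 2.86, against 88.4 to 298.0 in the other pairs, where repeat draws from 1 library would give about 1. This is more than sampling noise but does not show that they are separate samples. Both entered the fit as labelled (n = 3), and results are repeated with the 2 libraries added together. Each replicate was its own set of Petri dishes of eggs per the study's methods, but whether irradiated replicates 1 and 2 came from different larvae was not tested. The p-values measure only the spread between these libraries, which may in part be technical. The libraries were made from whole larvae, in which fewer cells of a type and less RNA per cell cannot be told apart. Blood cells could not be followed, since 0 of 14 blood cell marker symbols matched a name in the table. Only 1 of 9 fat body symbols and 1 of 9 gut symbols matched: Adh_3 had a log2 fold change of 0.00 ± 0.20 (SE) and Amy-d_0 one of 0.25 ± 0.40 (SE).

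The mean FPKM of the receptor gene Tl_13 was 12.8 in irradiated and 5.96 in non-irradiated larvae, and that of the receptor gene Tl_6 was 0.46 in irradiated and 0.868 in non-irradiated larvae. Rel_1 was 1.46-fold higher in irradiated larvae, but it reached neither an adjusted p under 0.05 nor the threshold of the study's methods. In Spz_1 and Dredd_2 no difference was detectable at this depth and number of pools. The groups of libraries did not overlap in FPKM (fragments per length of gene and size of library) for 3 of the 5 genes, against 27.2% of the 9768 tested genes. In edgeR's quasi-likelihood test, adjusted over all tested genes by the Benjamini-Hochberg method, 0 of the 5 reached an adjusted p under 0.05, which 3.74% of the tested genes did. At an unadjusted p under 0.05 there were 3 of the 5, against 21.0% of the tested genes, and DESeq2 gave 1 of the 5 at its own adjusted p under 0.05, against 9.15% of the genes for which it gave one. By the threshold of the study's methods (unadjusted p under 0.05, an absolute log2 fold change of 0.58 or more and an FPKM above 1 in a library), Tl_13 was higher and Tl_6 was lower. That is 2 of the 5, against 11.6% of the tested genes. The threshold was applied here to edgeR p-values, whereas the study tested with another package, written DEGseq2 in its methods.

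**Figure D1:**
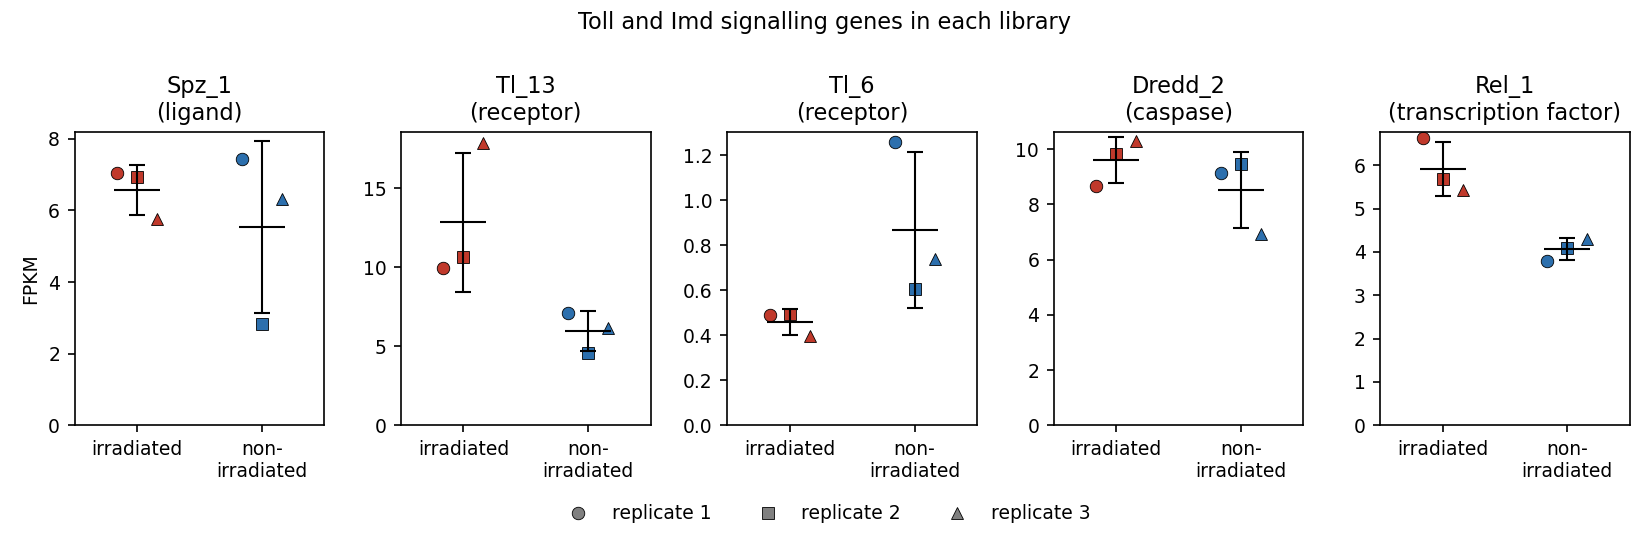
FPKM (vertical axis, from 0, with its own scale in each panel) of the 5 genes in each library, with irradiated libraries in red and non-irradiated libraries in blue, a marker shape per replicate number, and the mean ± SD (n = 3) as black lines. The groups are apart for Tl_13, Tl_6 and Rel_1 and overlap for Spz_1 and Dredd_2.

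Spz_1 is named for Spaetzle, the ligand of the Toll pathway. Its FPKM was 7.04, 6.93 and 5.76 in irradiated replicates 1, 2 and 3, against 7.44, 2.84 and 6.31 in non-irradiated replicates 1, 2 and 3. Non-irradiated replicate 2 alone stood low, with 171 counts against 419 and 440 in the other non-irradiated libraries, and the other 5 libraries lay between 5.76 and 7.44. The log2 fold change was 0.29 ± 0.30 (SE, edgeR adjusted p = 0.631), with a 95% interval from -0.42 to 1.00. An increase of up to 1.99-fold and a decrease to 0.749-fold therefore both lie inside the interval. Without non-irradiated replicate 2 the log2 fold change was 0.00 (edgeR adjusted p = 0.998), and with the alike pair summed it was 0.25 (edgeR adjusted p = 0.807). RefSeq lists 7 transcripts for the gene, and the gene counts do not separate them. In Drosophila the spaetzle transcript is spliced into several forms.

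Tl_13 is named for Toll, the transmembrane receptor that binds Spaetzle. The sources used here do not say which of the several Drosophila Toll receptors it matches, nor for Tl_6. The gene lengths behind the FPKM were 6284 bases for Tl_13 and 5720 bases for Tl_6. Tl_13 had 1075, 1230 and 1991 counts in irradiated replicates 1, 2 and 3, against 590, 409 and 632 counts in non-irradiated replicates 1, 2 and 3, which is an FPKM of 9.95, 10.7 and 17.9 against 7.12, 4.61 and 6.15. Every irradiated library was above every non-irradiated library, and irradiated replicate 3 stood well above both other irradiated libraries. Tl_13 averaged 81.1 ± 27.0 normalized CPM (counts per equal library size, after TMM normalization) in irradiated and 37.0 ± 5.54 in non-irradiated larvae (SD, n = 3 each). The log2 fold change was 1.13 ± 0.25 (SE, edgeR adjusted p = 0.0556), or 2.19-fold with a 95% interval from 1.46 to 3.29. Counting error alone gave the ratio of summed counts, set to a common library size, an interval from 2.06 to 2.31 (95%, exact binomial), which is far narrower than the interval of the fit.

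The adjusted p of Tl_13 was just above 0.05 with these settings. It was 0.0474 in edgeR without the filter on low counts and 0.00127 in DESeq2, and it ranged up to 0.126 over the other alternatives. With the alike pair summed, the log2 fold change was 1.27 (edgeR adjusted p = 0.112). Without irradiated replicate 3 it was 0.83 (edgeR adjusted p = 0.0834), the lowest of all settings. In all 16 alternatives Tl_13 stayed higher in irradiated larvae and met the threshold of the study's methods, and its p ranked 438 among the 9768 tested genes.

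Tl_6 carries the same receptor name and was the least expressed of the 5 genes. It had 48, 52 and 40 counts in irradiated replicates 1, 2 and 3, against 95, 49 and 69 counts in non-irradiated replicates 1, 2 and 3. Per length and library size, this was an FPKM of 0.488, 0.496 and 0.395 against 1.26, 0.607 and 0.738. The irradiated libraries were all below the non-irradiated ones, by a narrow margin at non-irradiated replicate 2. The log2 fold change was -0.87 ± 0.27 (SE, edgeR adjusted p = 0.133), or 0.546-fold with a 95% interval from 0.349 to 0.855. Counting error alone gave an interval from 0.437 to 0.678 for this ratio, which is closer to the width of the interval of the fit than for Tl_13.

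Only 1 library, non-irradiated replicate 1, had a Tl_6 level above 1 FPKM. Without it no library reached that level and the threshold of the study's methods was no longer met, at a log2 fold change of -0.59 (edgeR adjusted p = 0.242). With the alike pair summed it was -0.92 (edgeR adjusted p = 0.285). The direction held in all 16 alternatives. Of the tested genes, 7.15% had a lower mean FPKM than Tl_6, whereas 55.7% had a lower one than Tl_13. How the counting assigned reads that fit more than 1 related receptor gene is not given in the sources used here, and no sequences of the 2 genes were compared here.

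**Figure D2:**
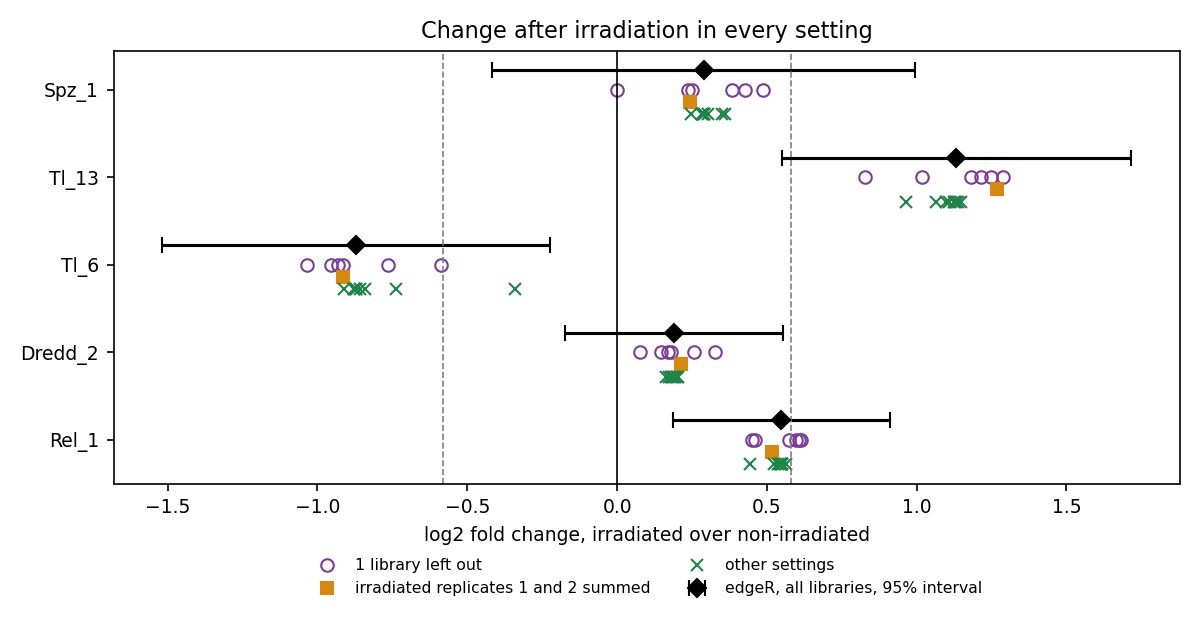
Log2 fold change of irradiated over non-irradiated larvae (horizontal axis) for the 5 genes, from edgeR with all libraries (black diamonds, 95% interval), with 1 library left out (purple circles), with irradiated replicates 1 and 2 summed (orange squares) and in the other settings (green crosses). Dashed lines mark 0.58 in either direction. Every point estimate of Tl_13 lies to the right of the upper line, while those of Rel_1 fall on both sides of it. The 95% interval of Tl_13 crosses that line, with its lower end at 0.549.

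Dredd_2 is named for Dredd, the caspase of the Imd pathway. Its FPKM was 8.68, 9.84 and 10.3 in irradiated replicates 1, 2 and 3, against 9.12, 9.47 and 6.94 in non-irradiated replicates 1, 2 and 3. The groups overlapped, and non-irradiated replicate 3 was the lowest library. The log2 fold change came to 0.19 ± 0.15 (SE, edgeR adjusted p = 0.537), and its 95% interval ran from -0.17 to 0.55, or from 0.887-fold to 1.47-fold. With the alike pair summed it was 0.22 (edgeR adjusted p = 0.647). Over the 16 alternatives the log2 fold change was between 0.08 without non-irradiated replicate 3 and 0.33 without non-irradiated replicate 2.

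Rel_1 is named for Relish, the transcription factor at the end of the Imd pathway. It had 236, 216 and 199 counts in irradiated replicates 1, 2 and 3, against 104, 120 and 146 counts in non-irradiated replicates 1, 2 and 3, or an FPKM of 6.62, 5.69 and 5.42 against 3.80, 4.10 and 4.31. The lowest irradiated library was above the highest non-irradiated one. Rel_1 averaged 5.91 ± 0.629 FPKM in irradiated and 4.07 ± 0.254 FPKM in non-irradiated larvae (SD, n = 3 each). The log2 fold change was 0.55 ± 0.15 (SE, edgeR adjusted p = 0.104), or 1.46-fold with a 95% interval from 1.14 to 1.88. This is just short of the 0.58 that the study's methods ask for. That size was passed without irradiated replicate 3 (0.62), without non-irradiated replicate 2 (0.60) and without non-irradiated replicate 3 (0.61), and in no other alternative. With the alike pair summed it was 0.52 (edgeR adjusted p = 0.271).

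The 5 genes differed in how steady they were between pools. The biological coefficient of variation that edgeR estimated was 0.161 for Rel_1 and 0.163 for Dredd_2, below the median of 0.198 over all tested genes. It was 0.271 for Spz_1, 0.247 for Tl_13 and 0.238 for Tl_6, all above that median. These estimates count irradiated replicates 1 and 2 as separate pools and may be too low. The highest non-irradiated library was 2.27 times the lowest for Spz_1, 1.80 times for Tl_6, 1.42 times for Dredd_2, 1.34 times for Tl_13 and 1.25 times for Rel_1, in normalized CPM. Among irradiated libraries, replicate 3 had 1.71 times the mean CPM of replicates 1 and 2 for Tl_13, whereas it was between 0.791 and 1.10 times that mean for the other 4 genes. The ratio of irradiated replicate 2 to irradiated replicate 1 was between 0.862 for Rel_1 and 1.14 for Dredd_2.

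FPKM sets the genes on a scale per length, so their levels can be ordered. In each of the 3 irradiated libraries the order was Tl_13, Dredd_2, Spz_1, Rel_1 and Tl_6, from high to low. Across irradiated libraries Tl_13 and Dredd_2 overlapped, as did Spz_1 and Rel_1, while Dredd_2 was above Spz_1 throughout. In each of the 3 non-irradiated libraries Dredd_2 was the highest and Tl_6 the lowest, and Tl_13 took the second or the third place. Across non-irradiated libraries Dredd_2 overlapped with Tl_13 and Spz_1, Spz_1 overlapped with Tl_13 and Rel_1, and Tl_6 lay below the other 4 genes in every library.

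A ratio between 2 genes of the same library does not depend on how libraries are scaled. The FPKM ratio of Tl_13 to Tl_6 was 20.4, 21.5 and 45.3 in irradiated replicates 1, 2 and 3, against 5.65, 7.60 and 8.34 in non-irradiated replicates 1, 2 and 3. The geometric mean of this ratio was 3.82 times as high in irradiated larvae, and each irradiated library lay above every non-irradiated one. The ratio of Tl_13 to Dredd_2 was 1.15, 1.09 and 1.74 in irradiated and 0.780, 0.487 and 0.886 in non-irradiated replicates, so that Tl_13 exceeded Dredd_2 in all irradiated libraries and in no non-irradiated one. The ratio of Spz_1 to Tl_6 was 14.4, 13.9 and 14.6 in irradiated and 5.91, 4.68 and 8.55 in non-irradiated replicates. Of the 10 possible pairs of the 5 genes, 5 had ratios that did not overlap between the groups, against 31.4% of all pairs of the 929 symbol-named tested genes with counts in every library. All 4 pairs with Tl_6 were among them, and the fifth was Tl_13 with Dredd_2. These pairs share genes and are not independent, and an exact permutation test of 3 libraries against 3 (two-sided) cannot give a p below 0.1. The ratios are therefore a description. The ratio of Spz_1 to Rel_1 overlapped, at 1.06, 1.22 and 1.06 in irradiated and 1.96, 0.693 and 1.47 in non-irradiated replicates.

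**Figure D3:**
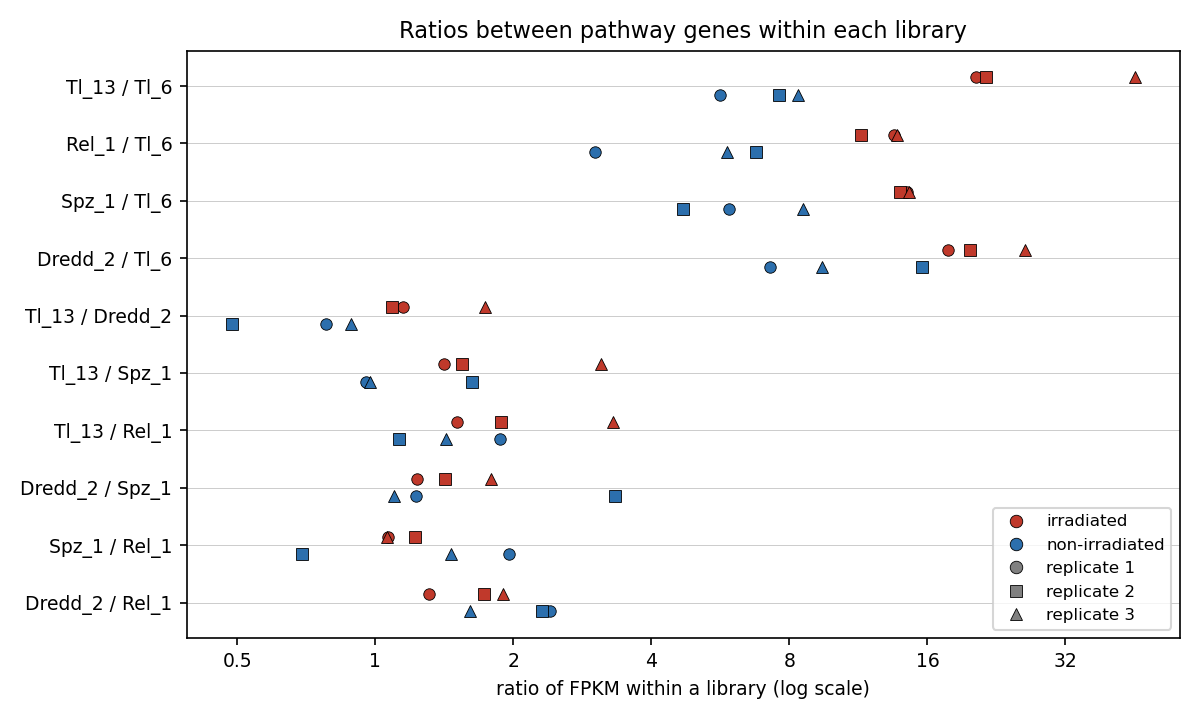
FPKM ratio of each of the 10 pairs of genes within a library (horizontal axis, log scale), with irradiated libraries in red above non-irradiated libraries in blue and a marker shape per replicate number. The upper 5 pairs do not overlap between the groups, led by Tl_13 over Tl_6 with a lowest irradiated ratio of 20.4 and a highest non-irradiated ratio of 8.34.

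Other genes of the pathways were looked for by 80 Drosophila symbols. Only 7 genes matched by an unambiguous name, the 5 above and 2 more, while 11802 of the 12834 genes in the table are known by a number only. The match was by name alone, and no sequences were compared. Recognition proteins, the protease cascade, the inhibitor Cactus, the adaptors Imd and Fadd and the antimicrobial peptides are not analysed here. Tak1_0 is named for Tak1, the kinase that acts after Imd. Its FPKM was 8.51, 7.89 and 7.74 in irradiated replicates 1, 2 and 3, against 8.02, 7.47 and 7.04 in non-irradiated replicates 1, 2 and 3, and its log2 fold change was 0.12 ± 0.10 (SE, edgeR adjusted p = 0.574). It was among the steadiest of all tested genes, of which 0.471% had a lower coefficient of variation. Its 95% interval ran from -0.13 to 0.36, inside 0.58 in either direction. That interval counts irradiated replicates 1 and 2 as separate pools and may be too narrow. No value with the alike pair summed is given for Tak1_0.

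Pli_1 is named for Pellino, a protein that binds the Toll pathway kinase Pelle. It averaged 42.2 ± 12.9 normalized CPM in irradiated and 50.6 ± 14.3 in non-irradiated larvae (SD, n = 3 each). Its groups overlapped, and the log2 fold change was -0.26 ± 0.29 (SE, edgeR adjusted p = 0.664). In edgeR 0 of these 7 genes passed an adjusted p of 0.05 (3.74% of the tested genes) and 3 an unadjusted p of 0.05 (21.0%), and in DESeq2 1 passed its adjusted p (9.15%). By the threshold of the study's methods 1 was higher and 1 was lower, against 586 higher and 545 lower of the 9768 tested genes (11.6% in all). These calls are those of Tl_13, Tl_6 and Rel_1 already given, and Tak1_0 and Pli_1 added none. The median log2 fold change of the 7 was 0.19, beside -0.01 over all tested genes. Without the 5 members, the median of Tak1_0 and Pli_1 was -0.07, with 1 above 0 and 1 below.

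The symbol Dl can stand for the Toll pathway factor Dorsal or for the Notch ligand Delta, since the table capitalizes all names, so it was not counted. Dl had a log2 fold change of -0.34 ± 0.18 (SE, edgeR adjusted p = 0.346). Jra was the 1 match of a list of JNK branch genes, and Tlr13_1 was added after its values were seen. Jra, named for the Jun subunit of the AP-1 factor that a branch of Imd signalling reaches, had an FPKM of 39.1 ± 2.93 in irradiated and 32.5 ± 3.63 in non-irradiated larvae (SD, n = 3 each), and the groups did not overlap. Its log2 fold change of 0.29 ± 0.11 (SE, edgeR adjusted p = 0.209) was smaller than that of Rel_1. Tlr13_1, which bears the name of a mammalian Toll-like receptor, had a log2 fold change of 0.43 ± 0.25 (SE, edgeR adjusted p = 0.378), and its groups overlapped. Values were also computed for Duox_0, Socs6_2 and Socs7_1, which no list matched. Their log2 fold changes were -0.36, 0.39 and -0.13 (edgeR adjusted p = 0.443, 0.197 and 0.724). The groups did not overlap in FPKM for Socs6_2, as for Jra, and overlapped for Duox_0 and Socs7_1. Of all tested genes, 27.2% did not overlap.

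**Figure D4:**
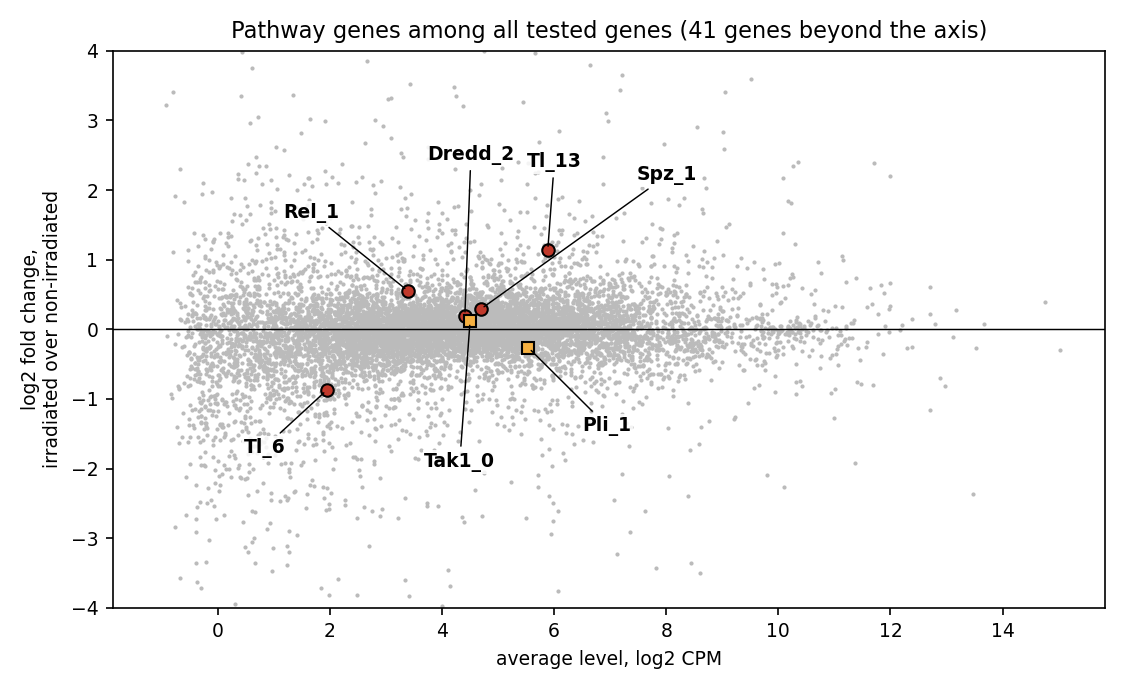
Log2 fold change of irradiated over non-irradiated larvae (vertical axis, cut at 4 in either direction) against average level in log2 CPM (horizontal axis) for the tested genes in grey, with the 5 genes as red circles and Tak1_0 and Pli_1 as orange squares; 41 genes lie beyond the axis. Tl_13 lies at 1.13, Tl_6 at -0.87 and Tak1_0 at 0.12 on the vertical axis.

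For each of the 5 genes, the 929 other symbol-named tested genes were searched for the pattern most like it over the 6 libraries, measured as the root mean square difference of centred log2 CPM. The measure is a description, with irradiated replicates 1 and 2 nearly the same point. Since genes were picked for a like pattern, fold changes near those of the 5 genes follow in part from the search. For Tl_13 the nearest were Orct_17 (0.107), Idgf4_1 (0.131) and Ate1_0 (0.183), named for an organic cation transporter, an imaginal disc growth factor and an arginyltransferase. Idgf4_1 averaged 400.3 FPKM in irradiated and 185.3 FPKM in non-irradiated larvae, with a log2 fold change of 1.13 ± 0.22 (SE, edgeR adjusted p = 0.0435), close in size to that of Tl_13 at a far higher level. For Tl_6 they were Tgfbi_7 (0.0826), Mmel1_3 (0.0986) and Impa2_0 (0.12), each lower in irradiated larvae by a log2 fold change between -0.72 and -0.89 and none past an adjusted p of 0.05 in edgeR.

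For Rel_1 the nearest was Slco1a1_3 (0.0902), named for an organic anion transporter, with a log2 fold change of 0.63 ± 0.11 (SE, edgeR adjusted p = 0.0306), followed by Vps16_1 (0.119) and Znf609_0 (0.119). For Spz_1 they were Ube4b_1 (0.0886), Mdr65 (0.13) and Abtb2_0 (0.157), which share with it the low value in non-irradiated replicate 2. For Dredd_2 they were Orct2_5 (0.0944), Cpr_1 (0.101) and Cul3_2 (0.102), none with an adjusted p under 0.05 in edgeR. None of the 5 genes was among the 3 nearest of another. With only 3 kept of 929 searched, this says little about whether the 5 genes moved together.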

How the data were processed

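RNA was sequenced from 3 irradiated and 3 non-irradiated pools of 20 larvae, grouped by their labels. The authors removed low-quality reads, aligned the rest with HISAT2 and counted them per gene with HTSeq (version 0.6.1p2 in the submitters' processing notes, while the study's methods name a later version). They deposited raw counts and FPKM values, the latter being counts divided by library total and gene length. Whether the counting used strand is not given in the sources used here.

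The groups were tested in R version 4.3.3 with edgeR, version 4.0.16 (filterByExpr, TMM normalization, glmQLFit and glmQLFTest with a robust prior), and p-values were adjusted by the Benjamini-Hochberg method over the 9768 genes kept, which include all 5 members. The standard error is the log2 fold change divided by the square root of F. Alternatives were DESeq2 (version 1.42.0), limma (version 3.58.1) on log2(FPKM + 1) and log2(FPKM + 0.1), other normalizations and filters, no robust prior, a replicate block, irradiated replicates 1 and 2 summed, and each library left out in turn. The scripts were tested on simulated data. A single count was worth 0.0546 to 0.0758 CPM. Intervals on counts cover counting error only.

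The members, lists and tests were chosen with earlier results of these data known. Genes were named as members, as matches of a symbol list, or as the 3 nearest patterns to each member. Dl, Jra, Tlr13_1, Duox_0, Socs6_2, Socs7_1, Adh_3 and Amy-d_0 are given beside these. None of 12 JAK/STAT symbols and 1 of 6 JNK symbols (Jra) matched. Transcript numbers come from the RefSeq gene table of assembly idZeuCucr1.2, which differs from the build of the authors, so no coordinates are given. No sequences were used here.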

Additional observations from a re-analysis of the deposited data

How the results depend on the processing

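The direction of Tl_13, Tl_6, Rel_1 and Dredd_2 was the same in all 16 alternative fits. Spz_1 had no direction without non-irradiated replicate 2 (log2 fold change 0.00) and was higher in irradiated larvae in the others. Tl_13 passed an adjusted p of 0.05 in DESeq2 (log2 fold change 1.14, adjusted p = 0.00127) and in edgeR without a filter (1.15, adjusted p = 0.0474), so that 1 member and 1 gene of the pathway list passed there, against 0 in the reported fit; the cause was not tested. By the threshold of the study's methods, 2 members and 2 pathway genes were called. With limma on log2(FPKM + 1) there was 1 of each, since the added 1 shrinks the fold of Tl_6, and when a fold of 1 on the log2 scale was asked for there was 1 of each. Leaving out 1 library gave 1 to 3 of each: Tl_6 was lost without non-irradiated replicate 1, and Rel_1 was added without irradiated replicate 3 or without non-irradiated replicate 2 or 3. That stricter fold left 610 of 1131 genes over the whole table.

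The number of genes with an adjusted p under 0.05 was 365 over the whole table, 1034 with DESeq2, 25 with irradiated replicates 1 and 2 summed, and 21 to 301 with 1 library left out. Leaving out irradiated replicates 1, 2 and 3 in turn gave 21, 27 and 138, and leaving out non-irradiated replicate 3 gave 241. With the replicate block it was 89, and the block changed no call of the 5 genes. Deviations from the group mean had correlations across genes of -0.01, -0.10 and -0.15 between same-numbered libraries, for numbers 1, 2 and 3. Between differently numbered libraries they ran from -0.12 to 0.13. With irradiated replicates 1 and 2 nearly the same, these values cannot show whether the number pairs the libraries.

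Depth limits Tl_6 most, at 40 to 95 counts a library.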
